A study of Mus musculus with 6 samples.

Results

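The genes described here are those encoded in mitochondrial DNA. They were chosen by position and name, as every gene of the whole-series count matrix that lies on the mitochondrial chromosome and whose symbol begins with mt-, and 29 of the 21666 genes in the matrix met that rule. Of these, 13 encode proteins, 2 encode ribosomal RNAs and 14 encode transfer RNAs. The annotation lists 37 genes on this chromosome, and the other 8, all tRNA genes, have no row in the matrix. Libraries were made from total RNA of satellite cells, the resident stem cells of mouse skeletal muscle, after 2 days of differentiation. There were 3 libraries of wild-type (WT) cells and 3 of cells from lncMREF knockout (KO) mice, lncMREF being a long noncoding RNA that the series title ties to myogenic differentiation. The sources used here give no strain, age or sex of the mice and no design of the deletion. Whether each replicate was its own animal or culture is not said either, so the p-values weigh differences against a spread between libraries that may be technical. lncMREF itself was not analysed here, and no count was used to check the knockout.

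Mitochondrial DNA is a small circle held in many copies per cell. Both of its strands are transcribed as long precursors, from which the rRNAs, tRNAs and mRNAs are cut, with tRNAs standing at many of the cut sites. Its mRNAs encode core subunits of respiratory complexes I, III, IV and V, and the remaining subunits of these complexes are nuclear. The polymerase, the processing enzymes, the ribosomal proteins and the aminoacyl-tRNA synthetases that act on mitochondrial RNA are nuclear too. Stretches of mitochondrial DNA have also been copied into nuclear chromosomes, and reads from a near-identical copy cannot be assigned to one place.

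Such a copy bears on the values that follow, so it is shown first. On mouse build mm10 (GENCODE M21), 7 pseudogenes in a row on the minus strand of chr1:24611535-24616197 match a single stretch of mitochondrial DNA, chrM:6390-11042, of 4653 bases. The sum of the paired positions on the 2 chromosomes was the same for all 7 to within 1 base, so they keep the order and spacing of the mitochondrial genes. Gm28661, Gm10925, Gm28437, Gm10222 and Gm28439 had no mismatch to mt-Co2, mt-Atp6, mt-Co3, mt-Nd4l and mt-Nd4 over 681, 678, 783, 294 and 876 bases. Gm28438 differed from mt-Nd3 at 1 of 345 bases (T3C) and Gm29216 from the end of mt-Co1 at 1 of 483 (A1066T), counting from the first base of the mitochondrial gene and giving its base first. The stretch holds 6 of the 13 protein genes whole, 31.3% of mt-Co1 and 63.6% of mt-Nd4, whereas the other 5 protein genes, both rRNA genes and all 14 tRNA genes of the matrix lie outside it. The lines below show the bases around the mismatches, 5′ to 3′ along the gene, with the differing base in capitals, at chrM:9459-9491 and chrM:6390-6423 on the plus strand and at chr1:24613087-24613119 and chr1:24616155-24616188 on the minus strand.
mt-Nd3: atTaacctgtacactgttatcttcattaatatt
Gm28438: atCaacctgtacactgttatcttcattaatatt
mt-Co1: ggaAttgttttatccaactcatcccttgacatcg
Gm29216: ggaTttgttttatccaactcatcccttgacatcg

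Mitochondrial genes also overlap each other. mt-Atp8 and mt-Atp6 share 43 bases at chrM:7927-7969, the largest overlap among the protein genes, shown here because counting by gene cannot split it. mt-Nd5 and mt-Nd6, on opposite strands, share 14 bases.
mt-Atp8 and mt-Atp6: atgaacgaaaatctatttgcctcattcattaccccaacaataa

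The 7 tRNA genes with enough counts to be tested are printed as transcripts, 5′ to 3′ with T for U and the anticodon in capitals, because they did not all change alike. mt-Tl1, mt-Tw and mt-Th are transcribed in the direction of most mitochondrial genes, and mt-Tn, mt-Tc, mt-Te and mt-Tp from the opposite strand. They carry leucine (chrM:2676-2750), tryptophan (chrM:4950-5016), histidine (chrM:11546-11612), asparagine (chrM:5089-5159), cysteine (chrM:5192-5257), glutamate (chrM:14071-14139) and proline (chrM:15356-15422), in the order of the lines.
mt-Tl1: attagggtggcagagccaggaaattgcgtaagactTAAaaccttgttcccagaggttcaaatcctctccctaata
mt-Tw: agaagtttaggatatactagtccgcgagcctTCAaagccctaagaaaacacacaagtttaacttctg
mt-Th: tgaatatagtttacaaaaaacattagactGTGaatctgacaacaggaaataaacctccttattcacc
mt-Tn: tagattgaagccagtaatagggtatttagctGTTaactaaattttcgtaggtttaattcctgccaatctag
mt-Tc: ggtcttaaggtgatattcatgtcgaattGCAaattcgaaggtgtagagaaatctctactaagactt
mt-Te: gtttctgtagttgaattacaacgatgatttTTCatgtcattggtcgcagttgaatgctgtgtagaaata
mt-Tp: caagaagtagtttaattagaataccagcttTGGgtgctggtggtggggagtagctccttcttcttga

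Matrix totals ran from 17919826 to 28430678 counts per library. Levels are given as CPM, the usual depth-scaled counts, after TMM scaling of the library size. In edgeR's quasi-likelihood test of KO against WT, 66.7% of the 15518 genes tested passed an adjusted p under 0.05, 33% of all genes lower and 33.7% higher in KO, and the median log2 fold change over all of them was 0.02. That split depends on the scaling, since with library size as the only scaling the median was 0.19 and 66.1% of calls were higher, against 50.5%. The muscle markers Myod1, Myog, Des and Acta1 were present in all 6 libraries. The summed level of 12 muscle markers was 23000 to 23500 CPM in WT and 6370 to 6920 in KO, with 10 of the 12 lower in KO and 1, the satellite cell marker Pax7, higher (0.53, adjusted p 1.12e-05).

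Counts on mitochondrial DNA took a smaller share of KO libraries. All 29 genes together held 4.05% ± 0.116 of the counts in WT and 2.15% ± 0.129 in KO (SD, n = 3 each), a ratio of 0.531, and the groups did not overlap. The level of this share depends on the source. In the separate per-library count tables it was 13.2% ± 0.295 and 7.48% ± 0.454 of all their counts, also without overlap and with a ratio of 0.565. Over the 21528 nuclear genes found in both sources, counts in those tables were 25% to 26.3% of those in the matrix. In the matrix the protein genes held 3.93% ± 0.108 and 2.09% ± 0.127, the rRNA genes 0.107% ± 0.00794 and 0.053% ± 0.00468, and the tRNA genes 0.0112% ± 0.000344 and 0.00588% ± 0.000763. Their KO-to-WT ratios were 0.532, 0.495 and 0.523. For each of these 4 shares the exact two-sided permutation test over libraries gave p = 0.1, the smallest that 3 against 3 allows. The tRNA share was mostly mt-Tp, which had 2340, 1885 and 2719 counts in WT and 903, 834 and 835 in KO. The next, mt-Tc, had 154, 110 and 163 against 170, 130 and 107. The tRNA ratio is therefore mainly that of mt-Tp, not of the class. In bulk RNA, fewer cells rich in mitochondria and less mitochondrial RNA per cell cannot be told apart. The labels name neither poly(A) selection nor rRNA depletion, and the low rRNA share is a property of these libraries as counted.

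**Figure D1:**
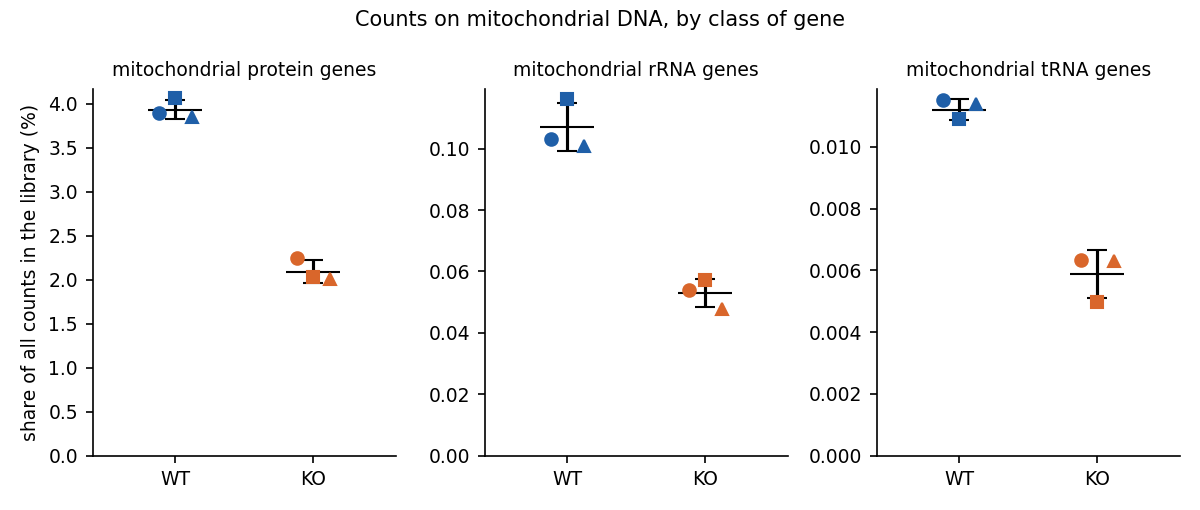
Share of all counts in a library, in percent, held by mitochondrial protein, rRNA and tRNA genes. Each symbol is a library (circle, square and triangle for replicates 1, 2 and 3), and bars show the mean ± SD of 3 libraries. In each panel all 3 KO libraries lie below all 3 WT libraries. The tRNA panel is mostly mt-Tp.

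All 13 protein genes fell, by 1.85 to 5.7-fold, with a median log2 fold change of -1.38. All 13 were called lower, beside 33% of all genes. In each of the 13 every KO library was below every WT library, but how often this held over all genes was not counted. Both rRNA genes fell, and of the 7 tRNA genes tested 3 fell and 4 were not called. In all, 18 of the 22 tested members fell and none was called higher by edgeR, DESeq2 or limma voom; at an unadjusted p under 0.05, edgeR had 1 member higher (mt-Tn) and the other tools 0. The adjusted p-values that follow are from edgeR's quasi-likelihood test with Benjamini-Hochberg adjustment over all 15518 genes.

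Complex I takes electrons from NADH, and 7 of its core membrane subunits are encoded here. mt-Nd1 (chrM:2751-3707) stood at 4249, 4254 and 4182 CPM in the WT libraries and at 2338, 2003 and 1951 in KO, which is -1.01 as log2 fold change (SE 0.05, adjusted p 1.17e-11). mt-Nd2 (chrM:3914-4951) stood at 3039, 3510 and 2965 against 1339, 1215 and 1109 (-1.38, SE 0.10, adjusted p 4.22e-05). The WT libraries of mt-Nd1 were nearly equal, whereas replicate 2 was the highest for mt-Nd2.

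mt-Nd4 (chrM:10167-11544) went from 2563, 2702 and 2490 to 1086, 1144 and 1095 (-1.22, SE 0.04, adjusted p 4.7e-24). mt-Nd5 (chrM:11742-13565), the longest of these genes, went from 5393, 6074 and 5402 to 2189, 2006 and 1931 (-1.46, SE 0.05, adjusted p 5.44e-16). mt-Nd6 (chrM:13552-14070) is the only protein gene transcribed from the opposite strand, and it went from 1093, 1190 and 1070 to 442.8, 452.4 and 420.2 (-1.35, SE 0.04, adjusted p 2.05e-24). Whether counting used strand is unstated, so reads of mt-Nd6 and of the precursor from the other strand may not be separated.

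The last 2 complex I genes lie in the copied stretch and had far lower counts. mt-Nd3 (chrM:9459-9806) had 30, 23 and 35 counts in WT and 11, 8 and 12 in KO (-1.44, SE 0.34, adjusted p 0.000424). mt-Nd4l (chrM:9877-10173) had 383, 582 and 773 against 179, 71 and 105 (-2.24, SE 0.46, adjusted p 0.0117). WT replicate 1 was the lowest WT library of mt-Nd4l, at 17.1 CPM against 30.6 and 28.9, and KO ranged from 2.83 to 8.11, so the libraries of each group were less alike here than for mt-Nd1 to mt-Nd6 outside the stretch.

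mt-Cytb (chrM:14145-15288), the cytochrome b of complex III, fell least of the protein genes. It stood at 5409, 5467 and 5367 CPM in WT and at 3142, 2901 and 2732 in KO, which is -0.89 as log2 fold change (SE 0.04, adjusted p 5.06e-19). The WT libraries were nearly equal, and KO replicate 1 was the highest of its group, as it was for mt-Nd1, mt-Nd2, mt-Co1 and mt-Nd5.

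Complex IV, cytochrome c oxidase, has 3 subunits encoded here. mt-Co1 (chrM:5328-6872), its catalytic subunit, was the most abundant member and went from 19050, 19480 and 18730 CPM to 10520, 9231 and 9654 (-0.96, SE 0.04, adjusted p 2.7e-20). It held 45.7% ± 0.483 of all mitochondrial protein counts in WT and 49.6% ± 1.19 in KO. mt-Co2 (chrM:7013-7696), which receives electrons from cytochrome c, stood at 195, 110.2 and 244.8 against 37.1, 37.1 and 44.95 (-2.22, SE 0.37, adjusted p 0.00554). The 3 WT libraries of mt-Co2 spread over more than 2-fold, while the KO libraries were close together.

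mt-Co3 (chrM:8607-9390) was uneven in WT, at 63.2, 54.9 and 160.1 CPM, and stood at 13.8, 25.3 and 31.8 in KO (-2.0, SE 0.62, adjusted p 0.0453). WT replicate 3 alone carried the high value, although even without it the KO libraries were all lower. The call was lost with any 1 of the 6 libraries left out (adjusted p 0.0512 to 0.13), including WT replicate 3, which gave a log2 fold change of -1.35. It was lost as well with library size only (0.0558), with no low-count filter (0.0544) and with the per-library tables (0.0558), and its 15 alternatives spanned adjusted p-values of 3.14e-05 to 0.13.

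Complex V, the ATP synthase, has 2 subunits encoded here. mt-Atp6 (chrM:7927-8607), part of its proton channel, fell most of all members, from 239.3, 261.4 and 241 CPM to 43.3, 53.4 and 32.2 (-2.51, SE 0.19, adjusted p 0.000315). That is a 5.7-fold fall, and 1.37% of all genes tested had a lower fold change. mt-Atp8 (chrM:7766-7969) had 36, 31 and 32 counts in WT and 23, 9 and 13 in KO (-1.09, SE 0.33, adjusted p 0.0047). KO replicate 2 was its lowest library, and without it the change was -0.74 (adjusted p 0.0601); its alternatives spanned adjusted p-values of 0.000856 to 0.0601.

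**Figure D2:**
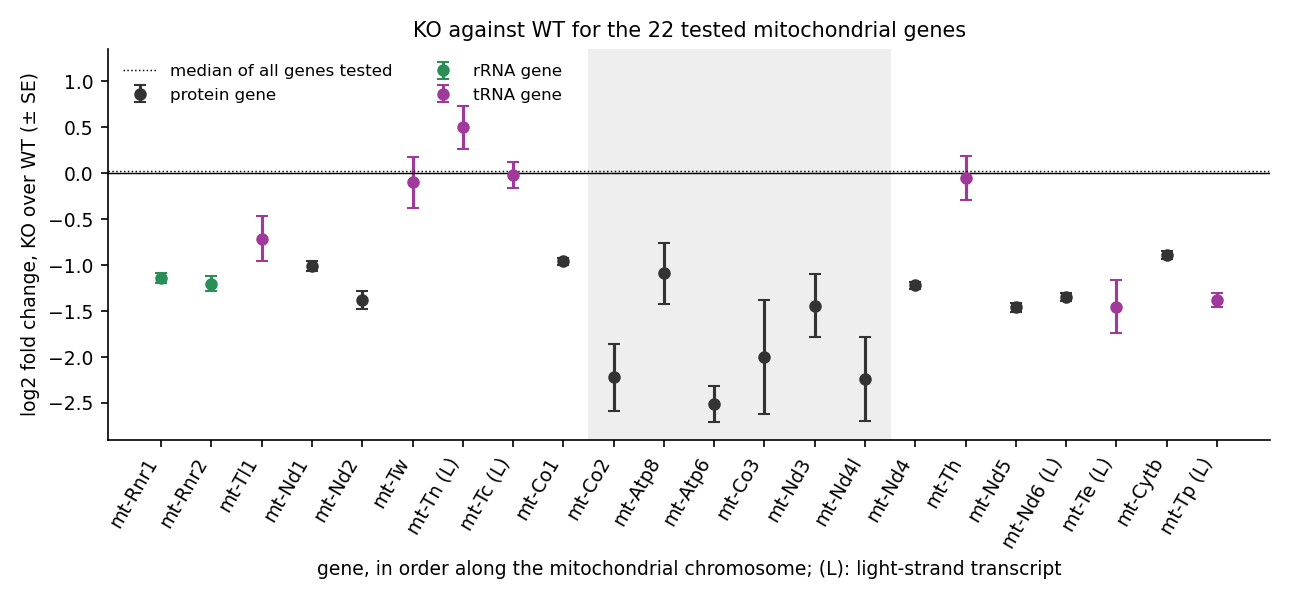
Log2 fold change of KO over WT (vertical axis, ± SE) for the 22 tested mitochondrial genes in chromosome order. (L) marks transcripts of the light strand, grey the 6 protein genes wholly inside the stretch copied to chromosome 1, and the dotted line the median of all genes tested. All protein and rRNA genes lie between -2.51 and -0.89, and 4 tRNA genes lie between -0.10 and 0.50.

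The order of levels per length followed the copied stretch. The 5 protein genes outside it had WT means of 2153 to 4733 CPM per kilobase, mt-Nd4 and mt-Co1, which it covers in part, 1876 and 12350, and the 6 genes wholly inside it 3.69 to 363.1. mt-Co1 stood first at 12350 ± 244.7 CPM per kilobase (SD, n = 3), followed by mt-Cytb at 4733 ± 43.8, mt-Nd1 at 4419 ± 41.8, mt-Nd5 at 3083 ± 214 and mt-Nd2 at 3056 ± 285. mt-Nd5 and mt-Nd2 differed by less than their spread. Next came mt-Nd6 at 2153 ± 122 and mt-Nd4 at 1876 ± 77.9. Inside the stretch, mt-Atp6 stood at 363.1 ± 18.1, mt-Co2 at 268.1 ± 99.5, mt-Co3 at 118.3 ± 74.6, mt-Nd4l at 85.9 ± 24.9, mt-Atp8 at 7.24 ± 1.2 and mt-Nd3 at 3.69 ± 0.187. mt-Atp6 and mt-Co2, and likewise mt-Co3 and mt-Nd4l, were not separated by their spread. In KO the same gene was first, at 6343 ± 424, and mt-Nd3 last, at 1.39 ± 0.453.

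**Figure D3:**
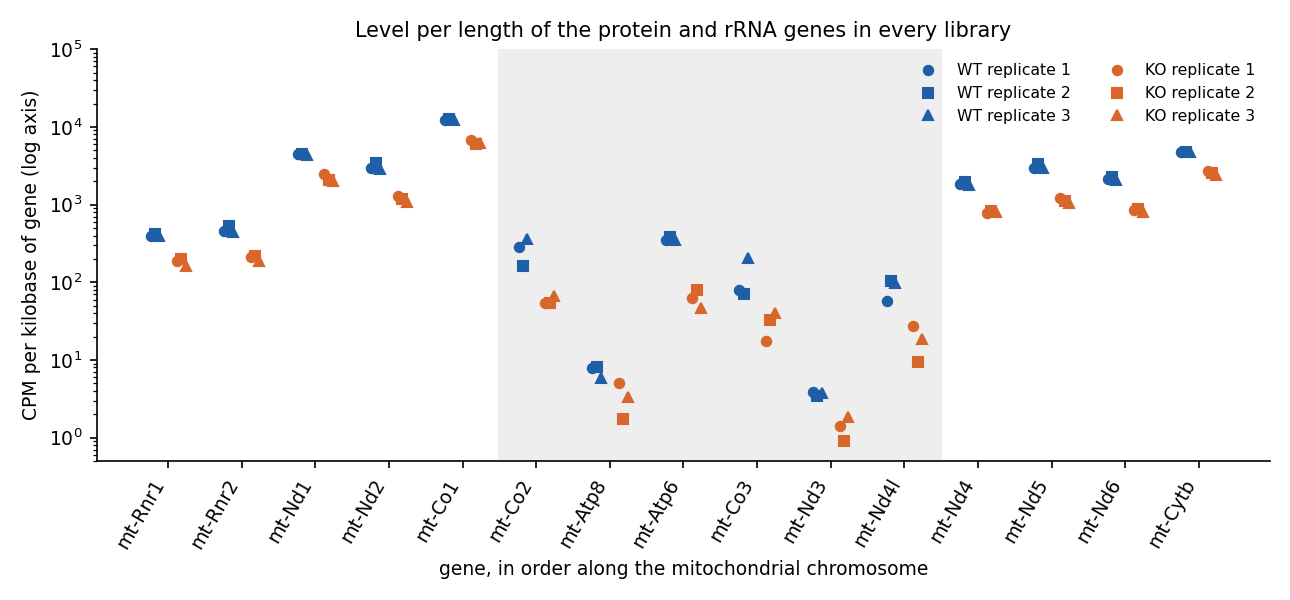
CPM per kilobase of gene (log axis) of the 13 protein and 2 rRNA genes in each of the 6 libraries, in chromosome order, with the copied stretch in grey. Genes in grey lie at WT means of 3.69 to 363.1, below the 1876 to 12350 of the other protein genes.

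Replicates were less alike inside the copied stretch too. The coefficient of variation of CPM over the 3 libraries was 0.925% to 9.32% in WT and 3.76% to 10% in KO for the 5 genes outside it, and 4.98% to 63.1% and 11.5% to 49.2% for the 6 genes inside. The median log2 fold change was -1.35 over the 5 genes, which ran from -1.46 to -0.89, and -2.11 over the 6, which ran from -2.51 to -1.09. The 6 genes held 1.33% ± 0.302 of mitochondrial protein counts in WT and 0.575% ± 0.0737 in KO. Their values count only the reads assigned to the mitochondrial gene and not to its copy.

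The 7 chromosome 1 copies had counts of their own in the matrix, summing to 6056, 7276 and 9520 in the WT libraries and 2122, 2807 and 2075 in KO, and all 7 fell. Gm10925, the copy of mt-Atp6, went from 101, 115 and 93 CPM to 33.5, 33.9 and 30.6 (-1.65, SE 0.07, adjusted p 1.82e-15), and Gm28438, the copy of mt-Nd3, from 16.6, 17.8 and 14.9 to 9.65, 8.92 and 9.22 (-0.82, SE 0.10, adjusted p 3.95e-09). The other 5 had log2 fold changes of -2.14 to -1.27 and adjusted p-values from 6.52e-13 to 0.033. Gm28437, the copy of mt-Co3, stood at 36, 80.8 and 138 in WT, so its highest library was WT replicate 3, as for mt-Co3.

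The copies took unlike parts of the reads. Gm28438 held 91.9% to 96.6% of the counts of mt-Nd3 and its copy together, Gm28437 36.3% to 59.5% of those of mt-Co3, Gm10925 27.8% to 48.7% of those of mt-Atp6, and Gm29216 0.0693% to 0.17% of those of mt-Co1. With each copy added to its gene, an alternative chosen after seeing the data, the log2 fold changes were -0.86 for mt-Nd3, -1.99 for mt-Co2, -2.21 for mt-Atp6, -2.06 for mt-Co3 and -2.07 for mt-Nd4l (adjusted p 7.11e-10 to 0.0294). For mt-Nd3 the sum, nearly all of it copy counts, fell less than the gene alone (-1.44). Per kilobase the sums in WT were 51 for mt-Nd3 and 514 for mt-Atp6, still below the 5 genes outside the stretch.

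**Figure D4:**
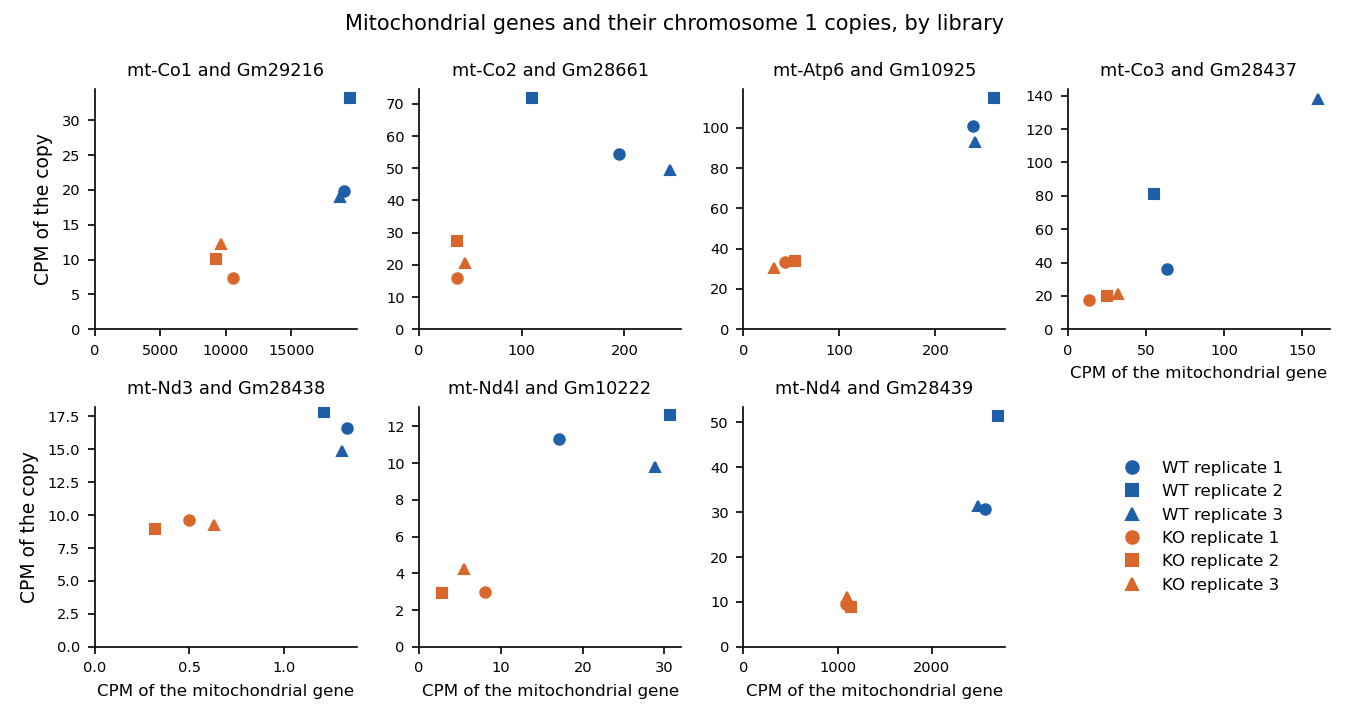
CPM of each chromosome 1 copy (vertical axis) against CPM of its mitochondrial gene (horizontal axis), 1 panel per pair and 1 symbol per library. In every panel the KO libraries are the lowest in both directions, and WT replicate 3 stands apart for mt-Co3 and Gm28437.

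The rRNAs of the mitochondrial ribosome fell alike. mt-Rnr1 (chrM:70-1024), of the small subunit, went from 376.9, 402.9 and 377.7 CPM to 178.5, 188.8 and 156.6 (-1.14, SE 0.05, adjusted p 5.51e-14), and mt-Rnr2 (chrM:1094-2675), of the large subunit, from 718.9, 830.9 and 699.2 to 331.7, 348.6 and 295.5 (-1.20, SE 0.08, adjusted p 5.13e-06). Replicate 2 was the highest library of both genes in both genotypes. At 404 and 474 CPM per kilobase in WT, both lay below the 7 protein genes not wholly in the copied stretch.

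Counts at the tRNA genes split. Reads of mature tRNAs and of precursors that hold them were not told apart, so these values are not levels of the tRNAs. mt-Tp, the proline tRNA, was by far the most counted, at 104.1, 99.2 and 101.5 CPM in WT and 40.9, 33.2 and 44 in KO (-1.38, SE 0.08, adjusted p 8.87e-11). mt-Te, the glutamate tRNA, fell from 44, 36 and 72 counts to 10, 23 and 20 (-1.45, SE 0.29, adjusted p 4.14e-05), and mt-Tl1, a leucine tRNA, from 50, 33 and 67 to 29, 36 and 23 (-0.71, SE 0.24, adjusted p 0.0104). The libraries of all 3 did not overlap on the CPM scale, again without a count of such separation over all genes. Leaving out WT replicate 3 ended the mt-Tl1 call (-0.60, adjusted p 0.0643), and its alternatives spanned adjusted p-values of 0.00545 to 0.0643.

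The other 4 tested tRNA genes were not called and their groups overlapped. mt-Tc, the cysteine tRNA, stood at 6.85, 5.79 and 6.08 CPM in WT and 7.7, 5.18 and 5.64 in KO (-0.02, SE 0.14, adjusted p 0.909). mt-Tw, the tryptophan tRNA, and mt-Th, the histidine tRNA, had log2 fold changes of -0.10 (SE 0.28, adjusted p 0.777) and -0.05 (SE 0.24, adjusted p 0.859). With library size as the only scaling these 3 turned to 0.15, 0.07 and 0.12, still not called.

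mt-Tn, the asparagine tRNA, had 59, 48 and 87 counts in WT and 124, 63 and 75 in KO, or 2.63, 2.53 and 3.25 against 5.62, 2.51 and 3.95 CPM (0.50, SE 0.24, adjusted p 0.0706). KO replicate 2 lay at the WT level and KO replicate 1 above all others. It passed the threshold without KO replicate 2 (0.77, adjusted p 0.00146) or WT replicate 3 (0.62, 0.0488), with library size only (0.67, 0.0171) and with no low-count filter (0.48, 0.0317), and not without KO replicate 1 (0.17, 0.532). Its alternatives spanned adjusted p-values of 0.00146 to 0.532.

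The remaining 7 tRNA genes of the matrix were too low to test. mt-Ty had 5, 10 and 21 counts in WT and 5, 7 and 8 in KO, and mt-Tm 4, 5 and 7 against 1, 0 and 0. mt-Ti, mt-Tq, mt-Ta, mt-Tl2 and mt-Tt never exceeded 5 counts in a library. A count of 0 allows up to 3 counts, so no fold is given for them. Of the 8 tRNA genes without a row in the matrix, mt-Ts1, mt-Td, mt-Tk, mt-Tg and mt-Tr are the 5 that lie inside the copied stretch, and mt-Tf, mt-Tv and mt-Ts2 lie outside it. None of the 8 exceeded 11 counts in a per-library table.

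Whether single genes moved with the mitochondrial total was tested in a fit whose library size was the summed count of the 13 protein genes. On this scale 86.3% of all genes tested were called higher and 5.74% lower in KO, with a median of 1.10, because the denominator itself was lower in KO. Of the 22 members, 11 were not called, 6 were lower and 5 higher. Among those not called, mt-Co1, which dominates the total, was at 0.12 (SE 0.08, adjusted p 0.138), mt-Nd1 at 0.07 (0.402) and mt-Nd4 at -0.14 (0.0835), and the rRNAs mt-Rnr1 and mt-Rnr2 were at -0.06 (0.431) and -0.12 (0.123). Also not called, mt-Nd4l was at -1.16 (SE 0.445, adjusted p 0.0646) and mt-Co3 at -0.90 (SE 0.664, 0.257). mt-Nd3 and mt-Te were both at -0.37 (0.34 and 0.225), mt-Tl1 at 0.36 (0.184) and mt-Atp8 at -0.02 (0.949). A missing call thus does not show that a gene moved with the total.

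Lower relative to the total were mt-Atp6 (-1.43, SE 0.08, adjusted p 6.72e-34), mt-Co2 (-1.14, SE 0.39, adjusted p 0.0477), mt-Nd5 (-0.38, adjusted p 1.53e-06), mt-Nd2 (-0.30, 0.00016), mt-Tp (-0.29, 0.000258) and mt-Nd6 (-0.26, 0.000581). mt-Cytb was higher by 0.19 (adjusted p 0.0155). The 4 tRNA genes not called against all counts were higher than the mitochondrial total, mt-Tn by 1.57 (SE 0.19, adjusted p 1e-15), mt-Tc by 1.05 (SE 0.15, 2.19e-12), mt-Th by 1.02 (SE 0.26, 0.000103) and mt-Tw by 0.97 (SE 0.29, 0.00103). The values of mt-Tc, mt-Th and mt-Tw were near the 1.10 median of all genes, and that of mt-Tn was above it.

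Some of these relative calls rested on single libraries or on the denominator. The mt-Co2 call was lost without WT replicate 1, WT replicate 3 or any KO replicate, and the mt-Cytb call without any WT replicate or KO replicate 2. Their alternatives spanned adjusted p-values of 2.91e-57 to 0.125 and 0.00043 to 0.0748. Calls were gained too. With limma voom, mt-Nd4l (-1.23, adjusted p 1.14e-07) and mt-Co3 (-0.84, 0.000355) were called lower. Without WT replicate 1, mt-Nd4l was called as well (-1.37, adjusted p 3.1e-12). mt-Rnr2 (-0.20, adjusted p 0.0228) and mt-Nd4 (-0.18, 0.0379) were called without KO replicate 2, and mt-Co1 (0.12, 0.0113) without KO replicate 1. With the 5 protein genes outside the copied stretch as the total, chosen after seeing the data, mt-Nd6 (-0.18, adjusted p 0.0521) and mt-Co2 (-1.05, 0.0642) were no longer called, while mt-Co1 was (0.20, 0.0344). mt-Atp6, mt-Nd2, mt-Nd5, mt-Tp and the 4 higher tRNA genes kept their calls under all 11 alternatives. Those of mt-Atp6 spanned adjusted p-values of 5.84e-67 to 0.0104, so the size of its p-value depended on the setting. Its SE in the relative fit, 0.08, was below the 0.19 of the fit against all counts.

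The light strand was followed through the counts of mt-Nd6. Whether counting used strand is unstated, so these may include reads of the precursor from the other strand. mt-Nd6 had 27.2, 28.4 and 26.9 counts per 1000 counts of the 12 protein genes of the other strand in WT and 21.4, 24.3 and 22.6 in KO, a ratio of 0.828 (exact two-sided permutation test p = 0.1, the smallest possible). Against the 4 genes of that strand outside the copied stretch, the values were 60.4, 61.6 and 59.7 and 49.2, 55.7 and 54.4, a ratio of 0.876. The groups did not overlap in either form. Those 4 genes did not fall alike: as log2 fold change, mt-Nd5 (-1.46) and mt-Nd2 (-1.38) fell about as far as mt-Nd6 (-1.35). mt-Nd1 (-1.01) and mt-Cytb (-0.89) fell less. The lower ratio therefore does not set the light strand apart from each gene of the other strand. Among tRNA genes of the light strand, mt-Te and mt-Tp fell whereas mt-Tn and mt-Tc were not called.

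The 6 per-library count tables gave similar counts for most mitochondrial genes. Of the 14 tRNA genes, 13 had identical counts in all 6 libraries in both sources, and mt-Tp was 1.05 to 1.07 times higher in the tables. All 90 values of the 15 protein and rRNA genes were higher in the tables, with ratios of summed counts from 1.01 for mt-Atp6 to 1.3 for mt-Atp8. The rows of the 7 chromosome 1 pseudogenes together had 0 to 8 counts per library in the tables against 2075 to 9520 in the matrix. Nuclear genes differed far more: of 21528 found in both sources, 75 had the same counts in all 6 libraries. The tables are reported not to match the gene names outside the mitochondrial chromosome. A nuclear row there, the pseudogenes included, may therefore not be the named gene. How the matrix was counted is not stated, so the levels per depth given here hold for the matrix, in which mitochondrial genes take a smaller share than in the tables.

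Lists of nuclear genes that act on mitochondrial DNA and RNA had smaller median changes, though single genes in them moved as far. Over 7 lists, 62 of 139 tested genes (44.6%) were lower, 20 (14.4%) were higher and 57 were not called, beside 33% and 33.7% of all genes. With library size as the only scaling, 46 were lower and 44 higher, beside 3703 lower and 7224 higher of all 15518 genes. In the per-library tables, where 42 of these genes had counts enough to be tested, 13 were lower and 12 higher. Over all 9871 genes tested there, 2745 were lower and 2691 higher. Nuclear rows there may not be the named genes, here and in the lists below. They therefore cannot decide whether the excess of lower calls holds. Each list spread over both signs, and their median log2 fold changes, from -0.33 to 0.02, lay above those of all the mitochondrial protein genes. Some counts of single lists given below are near the shares of all genes. These are the 3 of 10 transcription genes and 7 of 22 synthetases lower, and the 6 of 19 replication genes higher.

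Of 10 transcription genes, 3 were lower and none higher (median -0.21; edgeR had none higher at an unadjusted p under 0.05 either). The RNA polymerase Polrmt fell from 47.5 ± 0.963 to 34.1 ± 0.242 CPM (-0.48, SE 0.06, adjusted p 1.04e-08), and its partner in promoter melting Tfb2m by 0.36 on the log2 scale (SE 0.07). The elongation factor Tefm fell by 0.29 (adjusted p 0.016), a call lost with library size only (adjusted p 0.311) and without WT replicate 1 (0.0726) or KO replicate 2 (0.0782). Mterf2 was at -0.21 and not called, except without WT replicate 3 (-0.32, adjusted p 0.0396). Tfam, which packages mitochondrial DNA and opens its promoters, stood at 33.9 ± 2.34 and 33 ± 1.39 (-0.04, adjusted p 0.568); it was named after its value was seen.

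Of 19 replication and maintenance genes, 4 were lower and 6 higher (median 0.02). The nucleoside kinases Tk2 (0.61, adjusted p 1.4e-07) and Dguok (0.59, adjusted p 8.83e-07) rose, whereas the ribonucleotide reductase subunit Rrm2b (-0.58, adjusted p 1.89e-07) and the helicase Twnk (-0.35, adjusted p 6.92e-06) fell. With library size only, 2 were lower and 11 higher, and in the per-library tables the row named Twnk was at 0.21 (adjusted p 0.402).

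Of 30 RNA processing and turnover genes, 17 were lower and 6 higher (median -0.33). The rRNA methyltransferase Nsun4 fell by 0.86 on the log2 scale (SE 0.07), the tRNA modifier Trit1 by 0.94 (SE 0.08), the ribosome-associated Ptcd3 by 0.61 (SE 0.05) and Lrpprc, which stabilises mitochondrial mRNAs, by 0.46 (SE 0.05), with adjusted p-values from 7.7e-13 to 3.73e-10. Of 22 aminoacyl-tRNA synthetase genes, 7 were lower and 4 higher (median -0.06). Mars2 and Nars2, for methionine and asparagine, fell by 0.79 each and Yars2, for tyrosine, by 0.41. The Yars2 call was lost in the per-library tables (-0.44, adjusted p 0.25). Lars2, the leucine enzyme, fell furthest, from 896.6 ± 157 to 113.5 ± 41.5 CPM (-2.97, SE 0.36, adjusted p 0.0018), and was named after its value was seen. Its WT level stood far above the rest of the list, where Gars came next at 322.4 ± 4.48 CPM. Whether all reads counted at Lars2 came from its mRNA was not tested.

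Of 22 translation and assembly genes, 10 were lower and 2 higher (median -0.17). The copper chaperone of complex IV Sco1 fell by 0.95, the elongation factor Tufm by 0.47, the haem A synthase Cox15 by 0.56 and the initiation factor Mtif2 by 0.60 on the log2 scale. Of 14 regulators of mitochondrial biogenesis, 8 were lower and none higher, also at an unadjusted p under 0.05 in edgeR (median -0.22). The AMP-activated kinase subunit Prkaa2 fell from 53.5 ± 2.85 to 10.4 ± 1.22 CPM (-2.37, SE 0.08, adjusted p 2.14e-24), the coactivator Ppargc1a from 15.3 ± 0.665 to 3.15 ± 0.759 (-2.28, SE 0.13, adjusted p 2.93e-17), and the nuclear receptors Esrrg by 1.24 and Esrra by 0.56 on the log2 scale. With library size only, 3 of these 14 were called higher, and in the per-library tables, with 4 tested, 1 was lower and 2 were higher.

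Of 22 genes of mitochondrial membrane and matrix proteins, 13 were lower and 2 higher (median -0.19). Mdh2 of the citric acid cycle fell by 0.69 on the log2 scale, citrate synthase Cs from 389.9 ± 4.02 to 259.8 ± 11.1 CPM (-0.59, SE 0.04, adjusted p 1.42e-14), and the import receptor Tomm70a by 0.59. In the per-library tables, with 6 of this list tested, 1 was lower and 2 were higher. There the row named Cs was at 0.53 (adjusted p 0.00073), the opposite direction, though it may not be that gene. Another import receptor, Tomm20, rose by 0.33 and the chaperonin Hspe1 by 0.92, both named after their values were seen.

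**Figure D5:**
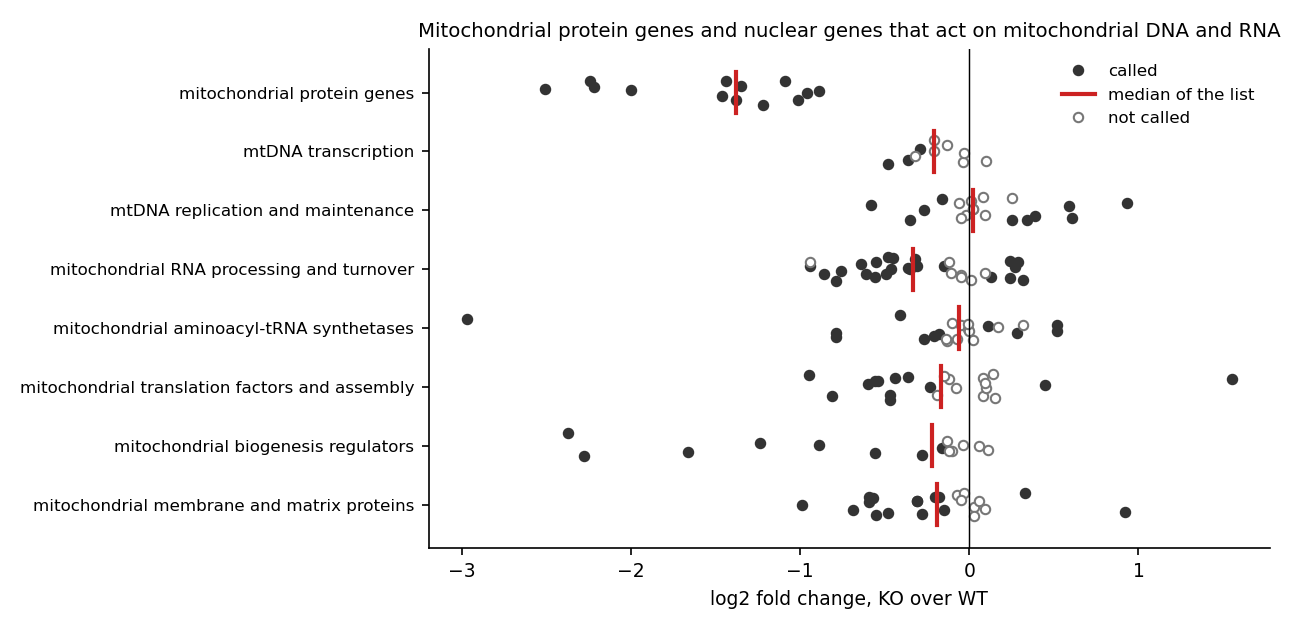
Log2 fold change of KO over WT for the 13 mitochondrial protein genes and for the tested genes of 7 nuclear lists. Filled points passed an adjusted p under 0.05, open points did not, and the red line is the median. The median of the first row is -1.38 and those of the others lie between -0.33 and 0.02.

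Markers of other cell types differed between the same libraries, where 33% of all genes tested were called lower and 33.7% higher. The summed level of 10 endothelial markers was 336 to 343 CPM in WT and 83.2 to 88.6 in KO, with all 10 lower. That of 10 macrophage markers was 94.7 to 99.5 against 284 to 291, with 8 of 9 tested higher. That of 9 Schwann cell markers was 499 to 501 against 995 to 1020, with 7 higher and 1 lower, and that of 9 fibro-adipogenic markers 7550 to 7680 against 8180 to 8780, with 3 of 8 tested higher and 4 lower. No marker was at 0 in all libraries, and 1 macrophage marker was at 0 in at least 1. Their part in the fall of the mitochondrial genes was not tested.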

How the data were processed

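The members and lists were chosen with earlier results of these data known. Raw read counts were deposited by the authors as a matrix of 21666 Ensembl genes and as tables per library of 55359 genes. Build mm10, featureCounts 2.0.1 and HISAT2 2.2.1 are named per the submitters' processing notes. The sources used here do not say how strand, overlaps and reads with several matches were treated. The matrix was the main source, because the per-library tables are reported not to match the gene names outside the mitochondrial chromosome. Symbols and positions came from GENCODE M21, which held 21632 matrix genes. Libraries were grouped by genotype in their titles. Genes kept by filterByExpr of edgeR 4.0.16 (minimum count 10, total 15) were scaled by TMM and tested by the quasi-likelihood F-test with robust dispersions in R 4.3.3, on genotype alone. Benjamini-Hochberg adjustment covered 15518 genes, and an adjusted p under 0.05 was a call. SE is the fold change over the square root of F. DESeq2 1.42.0, limma 3.58.1, other scalings and single libraries left out were alternatives. Nuclear copies were transcripts matched by blastn at 95% identity or more over 80% of the copy or more. All members are named, and from each list the 4 of smallest p, except genes not reported here. Both fits were tested on simulated data, in which far fewer genes changed than were called here and the reference genes were unchanged. Those data therefore do not check the setting used. Within-group library pairs differed by 3.17 to 5.11 times sampling noise (mean chi-square per gene), so none was taken as a repeat deposit.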

Additional observations from a re-analysis of the deposited data

How the results depend on the processing

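Of 330 values of the 22 tested mitochondrial genes under the alternatives, 313 kept their side of the threshold, 303 of them with the same sign, 12 lost a call and 5 gained one (all mt-Tn). The 10 values with the other sign were of mt-Tc, mt-Tw and mt-Th, never called, and no called gene reversed. 14 of the genes kept side and sign under every alternative run. The other exceptions were mt-Tl1, mt-Tn, mt-Atp8, mt-Co3 and mt-Nd4l. The count of members called higher went from 0 to 1 with library size only, with no low-count filter and with the replicate block, and ran from 0 to 1 with each library left out. Of the fixed lists, 44 genes were called higher with library size only in place of 20. Over all genes, higher calls went from 5230 to 7224 as well. The per-library tables called 13 lower and 12 higher in place of 62 and 20, with 42 in place of 139 tested. In those tables the rows named Twnk and Cs reversed, to 0.21 and 0.53, but nuclear rows there may not be the named genes. The cause was not tested. The replicate numbers share only a number: deviations of same-numbered libraries correlated at -0.001, -0.009 and -0.025, no pairing is stated, and the replicate block lost the call of mt-Nd4l (-2.21, adjusted p 0.0856) and gave 61 lower and 19 higher list genes. Shares and the mt-Nd6 ratio kept their direction under all alternatives run, and their test cannot pass 0.05 with 3 libraries against 3. Depth limits mt-Nd3, mt-Atp8 and the tRNA genes other than mt-Tp, which had the fewest counts.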

Other observations

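Nuclear copies outside the chromosome 1 stretch had counts in the matrix as well. Gm13340 (chr2:22588103-22589647), a 97.6% identical copy of all of mt-Co1, had 404, 343 and 456 counts in the WT libraries and 183, 179 and 159 in KO. Gm13339, a copy of part of mt-Nd2, had 27, 30 and 9 against 5, 6 and 11, and Gm4076, a copy of part of mt-Nd5, 21, 11 and 18 against 5, 13 and 4. Gm13341, a copy of mt-Co2, never exceeded 10 counts.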
